A study of Canis lupus familiaris with 6 samples.

Results

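A set of 10 genes of the bone morphogenetic protein (BMP) response in bone-forming cells was followed in healing beagle mandible: the transcription factors RUNX2, DLX5 and MSX2, the helix-loop-helix inhibitors ID1, ID2 and ID3, the ligands BMP2 and BMP4, and the inhibitory SMAD6 and SMAD7. Members were all probe sets annotated to 1 of these symbols alone, RUNX2 under both of its gene IDs (449531 and 474923). This gave 18 of 42860 probe sets, for 9 of the 10 genes. ID2 had no such probe set and was not analysed here. Of the 18 probe sets, 11 passed the filter on low values that is used throughout, covering 8 genes. SMAD7 was below it, as were 7 probe sets in all.

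The specimens were bone cylinders, 4.5 mm wide and 8 mm long, from mandibles of beagle dogs labelled 9 years old. All sites had healed for 3 months after premolar extraction before holes were drilled. Control holes were left without an implant (treatment "none"), and the others received beta-TCP, beta-tricalcium phosphate, a resorbable ceramic used as a bone substitute. Sites were sampled at 4, 7 and 14 days, with 1 Affymetrix array for each of the 6 groups, so no difference on a single day has a replicate check. The labels do not say which specimens shared a dog. The specimens are whole tissue, so fewer cells of a type and less RNA per cell cannot be told apart.

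BMP ligands bind paired serine/threonine kinase receptors, which phosphorylate SMAD proteins that enter the nucleus and switch on genes such as the ID genes. SMAD6 and SMAD7 are induced by the same signal and damp it. RUNX2 is the transcription factor required for osteoblast formation, and the homeobox factors DLX5 and MSX2 act in the same cells of the skull, jaw and limbs. ID proteins bind basic helix-loop-helix factors and keep them from DNA, and they are also active in endothelial and other dividing cells.

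Every value below is a probe set's deposited value divided by the median of its array, called the relative level. Differences are on the scale log2(relative level + 1), beta-TCP minus control unless another order is given. That scale understates the change of weakly expressed genes. Relative levels are compared between arrays within a probe set, not between probe sets. At least 2-fold means a difference of 1 or more on this scale.

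The arrays did not stand equally close. Spearman correlations between the beta-TCP day 14 array and each other array were 0.723 to 0.779, while those within the remaining 5 arrays were 0.832 to 0.905. The deposited medians were 1 on the 4 arrays of days 4 and 7, and 12 and 6.2 on the control and beta-TCP arrays of day 14. Day 14 was therefore deposited on another scale. In any difference from an earlier day, the time point and its scale cannot be told apart. Over all 25608 probe sets above the filter, the median of beta-TCP minus control was 0.15 at day 4, -0.04 at day 7 and -0.22 at day 14. With quantile normalization those medians were 0.05, -0.01 and -0.02, and with arrays scaled to their 90th percentile they were -0.03, 0.03 and 0.09. Type I collagen and osteonectin, the main bone matrix transcripts, were at relative levels of 732 to 2520 (COL1A1) and 342 to 1540 (SPARC) on the 6 arrays.

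ID1 (gene ID 609779), the classical direct target of BMP receptors, was the only member at least 2-fold higher with beta-TCP on all 3 days. Its relative level was 9.48, 19.4 and 7.67 on the control arrays of days 4, 7 and 14, and 26.1, 47.5 and 17.8 on the beta-TCP arrays. The beta-TCP array was the higher one on each day, although the ranges of both treatments overlapped because both peaked at day 7. The differences were 1.37, 1.25 and 1.11, or ratios of 2.75, 2.45 and 2.32 between relative levels. At least 2-fold higher on all 3 days was met by 10 of all 25608 probe sets (0.0391%) and by 1 of the 11 member probe sets. ID1 was already singled out by this pattern in earlier results of these data, so its selection is not independent. The 3 differences stayed at 1 or above with quantile normalization (1.19 to 1.43), with scaling to the 90th percentile (1.14 to 1.52) and with a pseudocount of 0.25 (1.19 to 1.44). With a pseudocount of 16 they were 0.51 to 0.84.

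ID3 (gene ID 403547), a close relative of ID1, was measured on 2 probe sets that gave the same direction at days 4 and 7 and opposite directions at day 14. On the probe set with the higher mean, called the main one for each gene, the relative level was 31.0, 114 and 86.8 on the control arrays and 72.3, 142 and 133 on the beta-TCP arrays. Its differences were 1.20, 0.32 and 0.61, so beta-TCP was higher on each day. The second ID3 probe set read 6.72, 15.6 and 9.05 on the control arrays and 11.2, 20.0 and 2.16 on the beta-TCP arrays. It differed by 0.66, 0.34 and -1.67. On the beta-TCP array of day 14, the one that stood apart, the second probe set had its lowest value and the main one its second highest.

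The 2 ID3 probe sets belong to different name types on this array, Cfa (main) and CfaAffx (second). Over 1639 genes with a mean log2 level of at least 2 on both types, the day 14 difference was lower on CfaAffx than on Cfa by a median of 0.61 (CfaAffx minus Cfa, -0.61), and 71.1% of genes had the same sign on both. For ID3 the gap was -2.28, at or below which only 1.71% of those genes lay. At days 4 and 7 the median gap was 0.04 and 0.17. The main probe sets of RUNX2, DLX5, ID1, BMP2, BMP4 and SMAD6 are also CfaAffx, and that of MSX2 is Cfa.

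**Figure D1:**
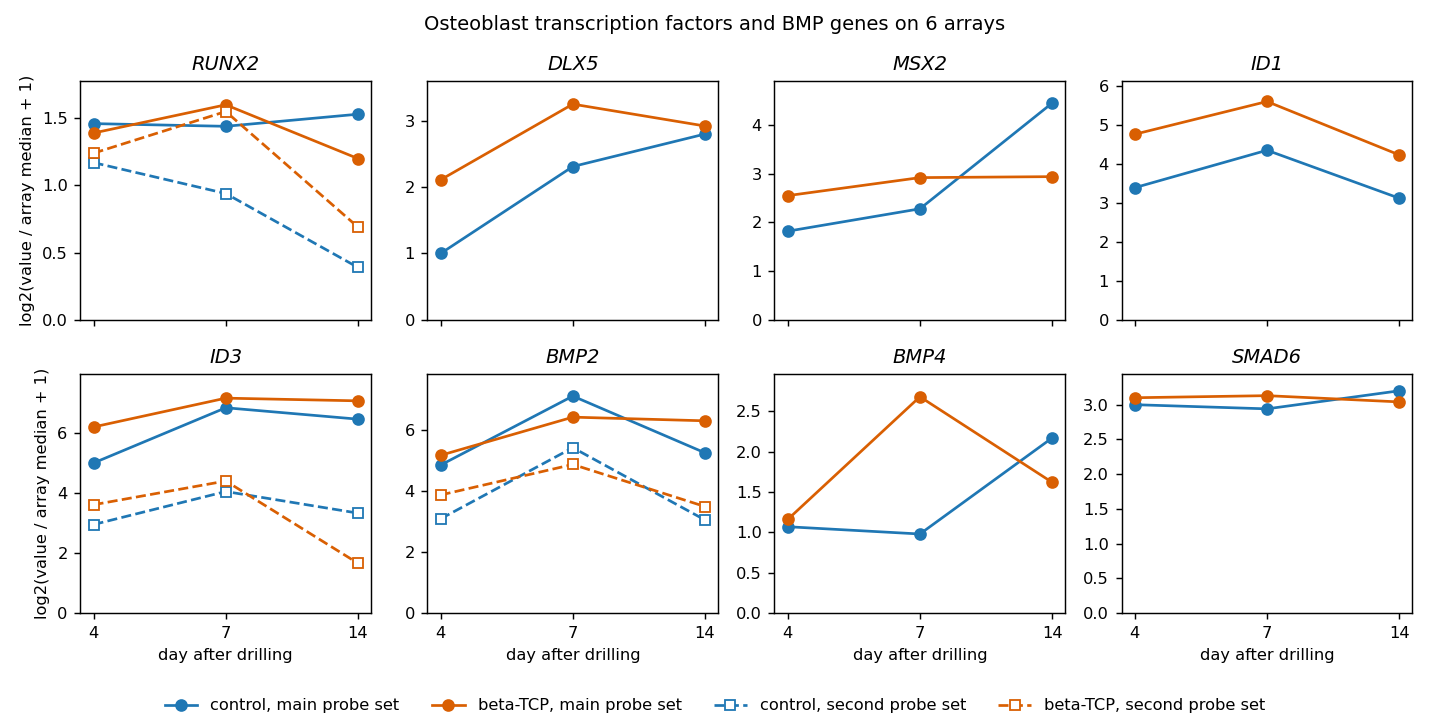
Level of the 8 genes with a probe set above the filter, as log2(value divided by the array median + 1), against the day after drilling (evenly spaced, not to scale), with 1 array per point. Filled circles and solid lines are main probe sets, open squares and dashed lines second probe sets, blue is control and orange beta-TCP. The lines of ID1 run apart on all 3 days, the lines of MSX2 and BMP4 cross between days 7 and 14, and those of SMAD6 stay between 2.94 and 3.20.

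Among the transcription factors, DLX5 and MSX2 were higher with beta-TCP at days 4 and 7, and MSX2 was lower at day 14. DLX5 (gene ID 482313), a homeobox activator of osteoblast genes, had relative levels of 0.995, 3.96 and 5.98 on the control arrays and 3.33, 8.53 and 6.55 on the beta-TCP arrays. The control value was higher on each later day and came close to that of beta-TCP by day 14. The differences were 1.12 at day 4, 0.94 at day 7 and 0.11 at day 14. The day 4 difference was 0.98 with scaling to the 90th percentile, just under 2-fold. With the control value near the array median, it depended on the pseudocount, at 1.52 with 0.25 and 0.19 with 16. At day 14 the difference was larger with quantile normalization (0.44) and with scaling to the 90th percentile (0.49). DLX5 was read on a CfaAffx probe set, and the median gap of that type at day 14 was -0.61. The part of the probe set type in the small day 14 difference was not tested.

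MSX2 (gene ID 403663), a homeobox factor of skull and tooth development that BMPs induce, stood at 2.53, 3.85 and 20.9 on the control arrays and at 4.85, 6.57 and 6.68 on the beta-TCP arrays. The control array of day 14 was the high one, while the beta-TCP arrays stayed within a narrow range. The differences were 0.73, 0.64 and -1.51. The day 14 difference kept its sign under quantile normalization (-1.07) and scaling to the 90th percentile (-1.12). Another MSX2 probe set was below the filter, at relative levels of 0.101 to 0.642.

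RUNX2 was weakly read and showed no common direction over its 5 probe sets. Its main probe set was at 1.75, 1.72 and 1.89 on the control arrays and at 1.62, 2.02 and 1.29 with beta-TCP. Those 6 values lie close together, and the differences were -0.07, 0.15 and -0.34. The second RUNX2 probe set read 1.25, 0.923 and 0.308 on the control arrays and 1.36, 1.92 and 0.613 on the beta-TCP arrays. It was higher with beta-TCP on each day, by 0.07, 0.60 and 0.30. At day 14 the gap between both types of probe set was -0.64 for RUNX2, next to the median gap of all genes (-0.61). The other 3 RUNX2 probe sets stayed below the filter, with relative levels of 0.0846 to 1.05.

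The ligands BMP2 and BMP4 did not follow each other. BMP2 (gene ID 477162), a strong inducer of bone, had relative levels of 27.7, 137 and 37.1 on the control arrays and 35.0, 84.8 and 77.9 on the beta-TCP arrays, on its main probe set. The second BMP2 probe set read 7.54, 41.7 and 7.30 on the control arrays and 13.6, 28.3 and 10.2 with beta-TCP. Both showed a peak at day 7 that was taller at the control site, and both were higher with beta-TCP before and after it. The differences were 0.33 and 0.77 at day 4 (main and second probe set), -0.69 and -0.54 at day 7, and 1.05 and 0.43 at day 14. Only the last main value was at least 2-fold.

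BMP4 (gene ID 490695), a ligand closely related to BMP2, was high on 1 array of the early days. It read 1.10, 0.973 and 3.50 on the control arrays and 1.24, 5.41 and 2.08 on the beta-TCP arrays. The beta-TCP array of day 7 was the highest and the control array of day 14 came next. The differences were 0.09, 1.70 and -0.55, the day 7 value being the highest of the 11 member probe sets on any day. It was 1.55 with quantile normalization and 0.33 with a pseudocount of 16. At day 4 the sign of BMP4 turned with scaling to the 90th percentile (-0.05).

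The inhibitory SMADs varied little or were barely read. SMAD6 (gene ID 487612) was at 6.99, 6.68 and 8.18 on the control arrays and at 7.56, 7.74 and 7.24 with beta-TCP. Its differences of 0.10, 0.19 and -0.16 included signs at days 4 and 14 that turned under quantile normalization (-0.12 and 0.20) and scaling to the 90th percentile (-0.13 and 0.23). Other SMAD6 probe sets were below the filter, at 0.0250 to 0.899. SMAD7 (gene ID 490570) read 0.0190 to 0.114 on the 6 arrays, in the lowest 1.6% of all probe sets by mean, so its response could not be read here.

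**Figure D2:**
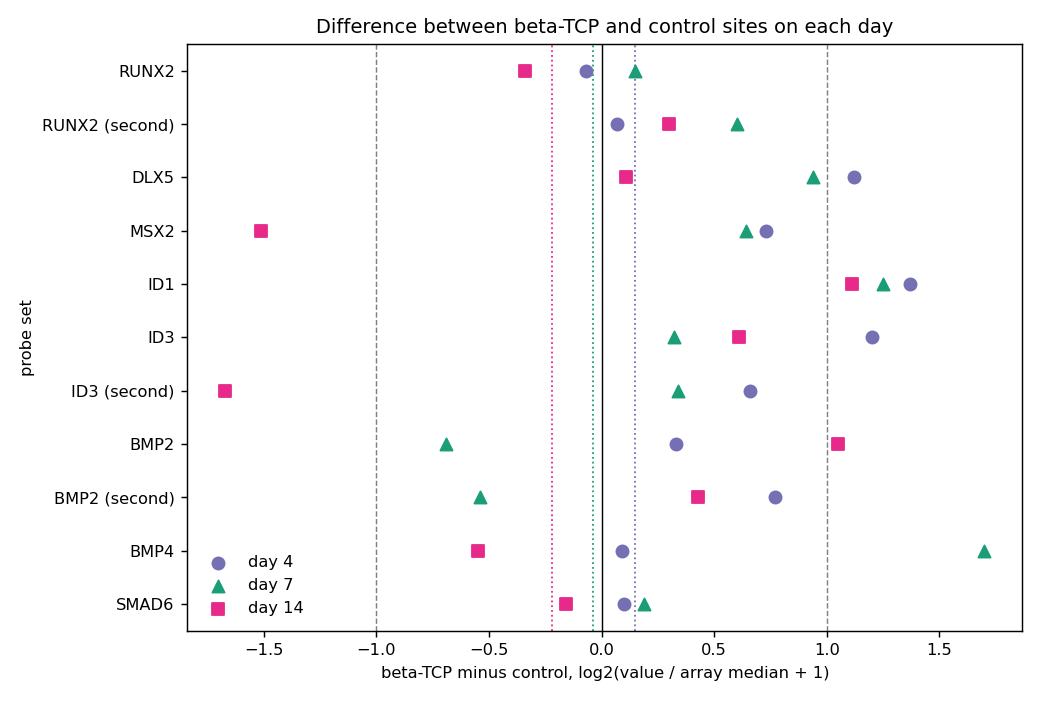
Difference between beta-TCP and control, log2(value divided by the array median + 1), for the 11 member probe sets above the filter, with 1 marker for each day. Dashed lines mark 2-fold and dotted lines the median of all probe sets on that day (0.15, -0.04 and -0.22). ID1 lies beyond the upper 2-fold line on all 3 days, and MSX2 and the second ID3 probe set lie beyond the lower one at day 14.

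Counted together at day 4, 3 of the 11 member probe sets were at least 2-fold higher with beta-TCP (DLX5, ID1 and ID3), against 4.31% of all probe sets, and 0 were lower, against 2.96%. The members' median difference was 0.66, where that of all probe sets was 0.15. At day 7, 2 of 11 were at least 2-fold higher (ID1 and BMP4), against 3.17% of all, and 0 were lower, against 3.00%. The medians were 0.34 for the members and -0.04 for all. At day 14, 2 of 11 were higher (ID1 and BMP2), against 3.89%, and 2 were lower (MSX2 and the second ID3 probe set), against 16.2%. The medians were 0.11 and -0.22. Above the median of all probe sets lay 7, 9 and 7 of the 11 on days 4, 7 and 14. On all 3 days, 4 of 11 were higher with beta-TCP at any size (the second RUNX2 probe set, DLX5, ID1 and the main ID3 probe set), against 9.01% of all, and 0 were lower on all 3 days, against 13.2%. Probe sets of 1 gene share their transcript and are not independent.

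The average effect of beta-TCP was tested in limma's additive fit of day and treatment over the 6 arrays (two-sided, Benjamini-Hochberg adjustment over 25608 probe sets). No member passed an adjusted p of 0.05, and neither did any of the 25608 probe sets (0%). The lowest adjusted p of all was 0.582. At an unadjusted p under 0.05, limma gave 1057 of all probe sets (4.13%) and 2 of the 11 member probe sets. ID1 had the smallest p of the members, with an average of 1.25 ± 0.29 (SE, 3 arrays against 3), limma adjusted p = 0.602. The main ID3 probe set averaged 0.71 ± 0.31 and DLX5 0.72 ± 0.32, both with limma adjusted p = 1. The second ID3 probe set had the opposite sign, -0.22 ± 0.45 (limma adjusted p = 1). MSX2 averaged -0.05 ± 0.45 and BMP4 0.41 ± 0.43, with larger errors since their differences opposed each other between days. BMP2 averaged 0.23 ± 0.37 and SMAD6 0.04 ± 0.29. Without the day 14 pair, ID1 averaged 1.31 (limma adjusted p = 0.0733) and DLX5 1.03 (limma adjusted p = 0.171), and MSX2 turned to 0.69. Without the day 4 or the day 7 pair, ID1 averaged 1.18 and 1.24 and DLX5 0.53 and 0.61, each with limma adjusted p = 1 and 1 residual degree of freedom. Missing the threshold does not show that levels were equal.

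Between days 4 and 7, which were deposited on the same scale, most members were higher at day 7. On the control arrays 5 of 11 were at least 2-fold higher, against 13.6% of all probe sets, and 0 lower, against 5.68%. The 5 were both BMP2 probe sets (2.26 and 2.32), both ID3 probe sets (1.84 and 1.10) and DLX5 (1.31). On the beta-TCP arrays 4 of 11 were at least 2-fold higher, against 4.71%, and 0 lower, against 2.69%. These were BMP4 (1.52), both BMP2 probe sets (1.25 and 1.0) and DLX5 (1.14), and all 11 were higher at some size, where 52.9% of all were. BMP2 and ID3 differed more between these days at the control site, and BMP4 differed by -0.09 there. Whether these steps differ between treatments was not tested, since each rests on 1 array. In limma's fit over both treatments, day 7 minus day 4 was 1.76 ± 0.46 for the main BMP2 probe set (adjusted p = 0.226) and 1.66 ± 0.42 for the second (adjusted p = 0.214). For ID3 it was 1.40 ± 0.38 on the main probe set (limma adjusted p = 0.232) and 0.94 ± 0.56 on the second (limma adjusted p = 0.599). For DLX5 it was 1.23 ± 0.39 (limma adjusted p = 0.304). No probe set of all 25608 passed for this difference (0%), and 2814 (11%) had an unadjusted p under 0.05 in limma, among them 5 of the 11 member probe sets.

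From day 7 to day 14, ID1 and the second BMP2 probe set were at least 2-fold lower in both treatments. On the control arrays 3 of 11 were at least 2-fold lower (6.55% of all) and 2 higher (3.95% of all). ID1 differed by -1.23, and both BMP2 probe sets by -1.86 and -2.36. MSX2 (2.18) and BMP4 (1.19) were the higher ones. On the beta-TCP arrays 4 of 11 were at least 2-fold lower (19.7% of all) and 0 higher (4.39% of all). They were ID1 (-1.37), the second ID3 probe set (-2.73), the second BMP2 probe set (-1.39) and BMP4 (-1.06). The main BMP2 probe set differed by only -0.12 there. ID1, BMP4, the second ID3 and the main BMP2 probe sets are CfaAffx, and the second BMP2 probe set is Cfa. Over the 1639 genes read on both types, CfaAffx minus Cfa was centred on each gene's mean. Its median was 0.20 on the beta-TCP array of day 7 and -0.81 on that of day 14. On the control arrays of those days it was 0.03 and -0.19. The part of the probe set type in these differences was not tested. A peak at day 7 in both treatments was shared by 5 of 11 member probe sets, those of ID1, ID3 and BMP2, against 14.6% of all.

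Limma called 837 of 25608 probe sets for day 14 minus day 4 (3.27%), 3 for day 14 minus day 7 (0.0117%) and 290 by an F test over days (1.13%), with no member among them. The members with the smallest p for day 14 minus day 4 were DLX5 (1.30, limma adjusted p = 0.108) and the main ID3 probe set (1.17, limma adjusted p = 0.128), followed by MSX2 (1.51, limma adjusted p = 0.166). For day 14 minus day 7 the second BMP2 probe set was at -1.88 (limma adjusted p = 0.247) and ID1 at -1.30 (limma adjusted p = 0.327). The second BMP2 probe set had the smallest p of the members in the F test over days (limma adjusted p = 0.0995). With quantile normalization DLX5 passed for day 14 minus day 4, where 5.54% of all probe sets did.

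**Figure D3:**
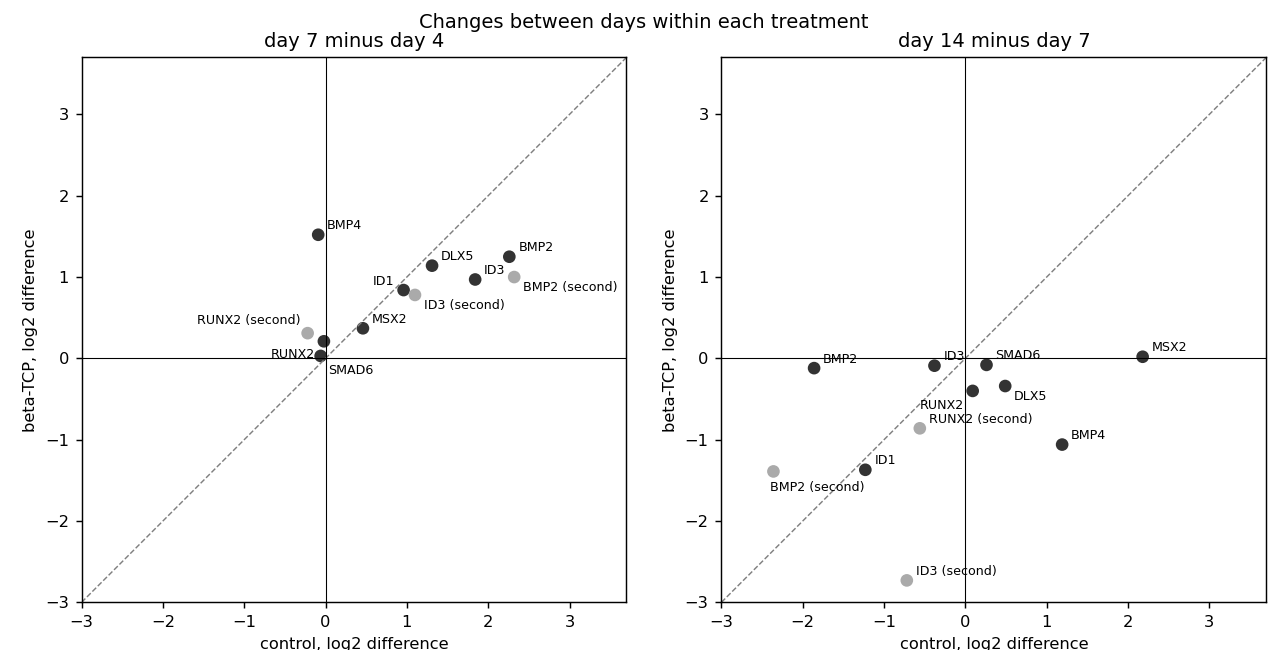
Change of the 11 member probe sets between days, log2 difference on the beta-TCP arrays against that on the control arrays, with black points for main and grey points for second probe sets and a dashed line where both are equal. Between days 4 and 7 the BMP2 and ID3 points lie to the right at 1.10 to 2.32 on the control axis, and BMP4 lies at -0.09 on that axis and 1.52 on the beta-TCP axis. Between days 7 and 14 MSX2 lies at 2.18 on the control axis and 0.02 on the beta-TCP axis.

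The rest of the BMP pathway was read from a list of 39 genes, of which 34 were measured and 24 passed the filter on their main probe set. No gene of the list passed limma's test for the average effect, in either direction, and 2 of 24 had an unadjusted p under 0.05 (4.13% of all probe sets). At least 2-fold higher with beta-TCP were 3 of 24 at day 4 (4.31% of all probe sets), 5 at day 7 (3.17% of all) and 1 at day 14 (3.89% of all). Lower were 0 (2.96% of all), 0 (3.00% of all) and 5 (16.2% of all). The list's median was 0.50, 0.14 and -0.46 on the 3 days, so it crossed from above to below the median of all probe sets (0.15, -0.04 and -0.22). This was not particular to the BMP list. The list of other skeletal transcription factors below crossed likewise, at 0.62, 0.17 and -0.46. Most of the BMP list's genes above the filter were read on CfaAffx probe sets. At day 14 the median of all probe sets was -0.33 on CfaAffx and -0.13 on Cfa. The part of the probe set type in the list's median was not tested.

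Among the other ligands, BMP6, which is made by osteoblasts and endothelial cells, read 2.80, 7.75 and 8.42 on the control arrays and 6.21, 21.5 and 11.2 with beta-TCP. It was the higher one with beta-TCP on each day, on average by 0.88 ± 0.32 (SE, limma unadjusted p = 0.0222, adjusted p = 1). GDF5, a joint-forming ligand of the same family, lay the other way on each day. It read 1.42, 1.92 and 1.16 on the control arrays and 0.735, 0.812 and 0.210 with beta-TCP, an average of -0.67 ± 0.29 (limma unadjusted p = 0.0477, adjusted p = 1).

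Of the receptors, BMPR1A, a type I receptor for BMP2 and BMP4, differed by 0.72, 0.75 and -0.25. ACVR1, another type I receptor, differed by 0.78, 0.13 and -1.09, and the type II receptor ACVR2A by 0.50, 1.14 and -1.36. Among the signalling SMADs, SMAD1 differed by 0.63, 0.68 and -0.66, SMAD5 by 0.71, 0.14 and -0.75, and the shared partner SMAD4 by 0.44, 0.34 and -1.27. SMAD9 differed by 0.44, 0.69 and 0.47. These 3 SMADs other than SMAD4 were weakly read, at relative levels of 0.745 to 1.85 (SMAD1), 0.452 to 2.01 (SMAD5) and 0.214 to 1.45 (SMAD9). BMPR1B, another type I receptor, differed by -0.07, -0.16 and 1.15, the last from 0.125 times the array median in the control to 1.5 with beta-TCP, and the endothelial co-receptor ENG by 0.51, -0.58 and 0.88. At day 14, SMAD9, BMPR1B and ENG were higher with beta-TCP and the other receptors and SMADs named here lower, on a day when 37.9% of all probe sets were higher at any size.

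Secreted and membrane antagonists of BMPs and activins included the highest difference of the list. BAMBI, a decoy receptor, read 1.06, 2.32 and 3.24 on the control arrays and 2.69, 12.4 and 2.66 with beta-TCP, which gave 0.84, 2.01 and -0.21. Follistatin (FST), which traps activins and BMPs, read 0.292, 2.36 and 7.11 against 1.75, 10.0 and 3.18, and differed by 1.09, 1.72 and -0.96. Both were highest on the beta-TCP array of day 7, as BMP4 was. CHRDL2 averaged -0.20 ± 0.30, TWSG1 -0.20 ± 0.30 and the endothelial receptor ACVRL1 -0.35 ± 0.29. The follistatin-like gene FSTL1 differed by 1.35 and 1.37 at days 4 and 7 and by -3.10 at day 14. That last value came from a CfaAffx probe set at 9.08 in the control and 0.177 with beta-TCP, a level near the array background. ID4, the fourth ID gene and a target as ID1 is, differed by 1.04, 0.02 and -0.71.

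The TGF-beta pathway is a sister pathway of BMP signalling. Of 20 listed genes 19 were measured and passed the filter, and none passed limma's test for the average effect in either direction or had an unadjusted p under 0.05. The list's median was -0.01, -0.04 and -0.16. TGFB1 differed by 0.95, -0.03 and 0.53. INHBA, the activin A subunit, was lower with beta-TCP at day 7 (77.3 in the control, 23.7 with beta-TCP, -1.66), and so was PMEPA1, a TGF-beta feedback gene (-1.0). TGFBI (-2.51) and TGFB2 (-1.59), both read on CfaAffx probe sets, were at least 2-fold lower at day 14. LTBP3 (1.01), on a Cfa probe set, was at least 2-fold higher that day. The other highest averages were those of TGFB3 (0.33 ± 0.30) and TGFBR3 (0.29 ± 0.36), and SMAD3 (-0.41 ± 0.30) was among the lowest.

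Other skeletal transcription factors were read from a list of 30 genes, with 27 measured and 15 above the filter. None passed limma's test for the average effect in either direction, and 2 of 15 had an unadjusted p under 0.05 (4.13% of all probe sets). The list's median was 0.62, 0.17 and -0.46 on the 3 days, close to that of the BMP list. At least 2-fold higher with beta-TCP were 3, 1 and 0 of the 15 (4.31%, 3.17% and 3.89% of all probe sets). Lower were 0, 1 and 4 (2.96%, 3.00% and 16.2% of all). HAND2, a patterning factor of jaw and limb, read 1.66, 3.15 and 2.72 on the control arrays and 3.66, 12 and 5.95 with beta-TCP. It averaged 1.12 ± 0.31 (limma unadjusted p = 0.00648, adjusted p = 0.823) and was higher on each day. JUNB, an AP-1 subunit, differed by -0.83, -0.66 and -0.97, with an average of -0.82 ± 0.29 (limma unadjusted p = 0.0203, adjusted p = 1). DLX6, the genomic neighbour and relative of DLX5, differed by 1.26, 0.88 and -0.46, and MEF2C by 0.99, 0.92 and -0.31. FOSL2 (-0.61 ± 0.33), ATF4 (-0.34 ± 0.33) and SOX5 (-0.26 ± 0.36) were the other lowest averages. PRRX1, a mesenchymal factor, was the 1 gene of the 3 lists that limma called between days 14 and 4, with relative levels of 27.7, 73.1 and 182 on the control arrays and 49.4, 95.6 and 161 with beta-TCP (adjusted p = 0.0263).

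**Figure D4:**
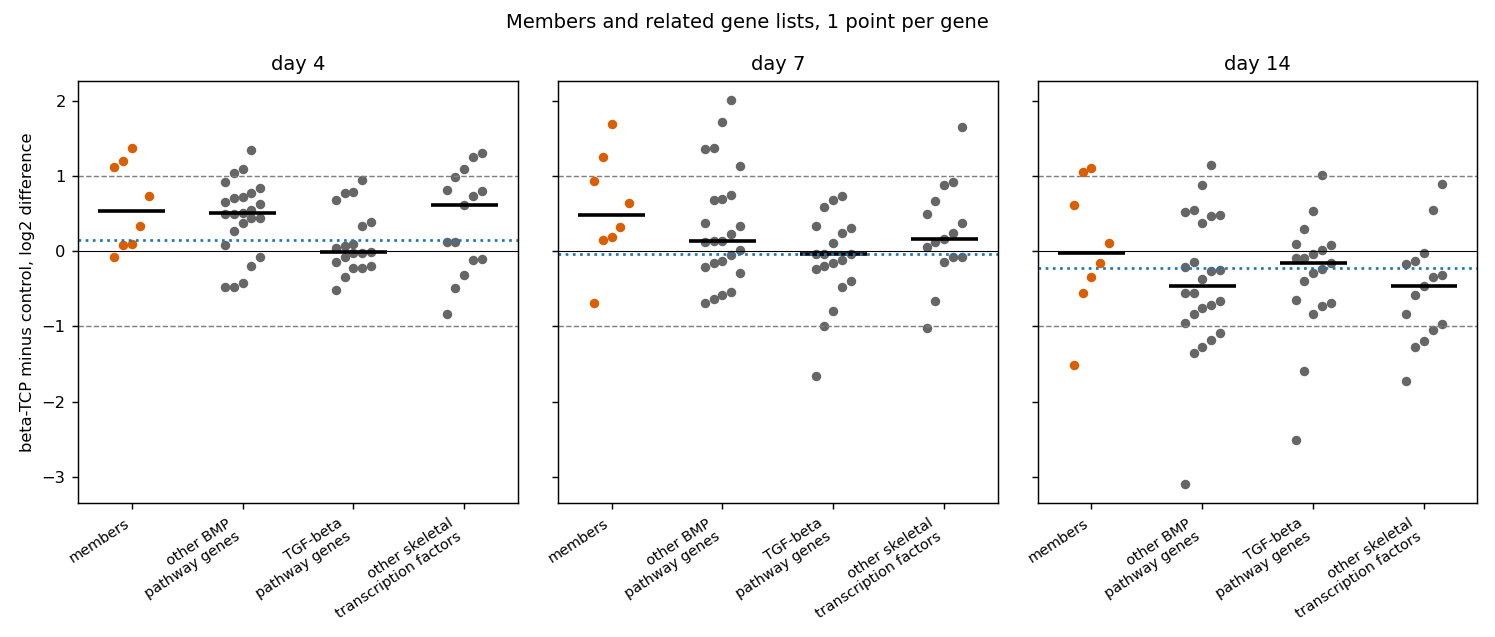
Difference between beta-TCP and control on each day (log2) for the 8 members with a main probe set above the filter and for 3 related lists, with 1 point per gene, black bars for the list medians, dotted lines for the median of all probe sets and dashed lines for 2-fold. The BMP list has its median at 0.50 on day 4 and at -0.46 on day 14, and the list of other skeletal transcription factors at 0.62 and -0.46. FSTL1 is the lowest point of the BMP list on day 14 at -3.10, from a CfaAffx probe set at 0.177 times the array median with beta-TCP.

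Markers of the cell types a specimen could hold differed between the same arrays. All 10 endothelial markers passed the filter, and their summed relative level was 79.7, 380 and 271 on the control arrays and 169, 275 and 352 with beta-TCP. By gene, their median difference was 0.81, -0.11 and 0.27 on the 3 days, and 8, 3 and 6 of the 10 were higher with beta-TCP. Pericyte and smooth muscle markers (5 of 6 above the filter) summed to 99.3, 352 and 696 on the control arrays and 242, 437 and 979 with beta-TCP. These sums were made up mostly of ACTA2 and TAGLN. By gene, 4, 5 and 3 of the 5 were higher with beta-TCP on the 3 days. MYH11 (-0.10) was lower at day 4, and TAGLN (-0.23) and PDGFRB (-0.26) were lower at day 14. Cartilage markers (4 of 6) summed to 4.02, 7.81 and 28.6 against 14.4, 39.2 and 19.7. All 4 were higher with beta-TCP at days 4 and 7. At day 14, COL9A1 (1.36) and CNMD (0.12) were higher and ACAN (-0.58) and HAPLN1 (-1.55) lower. CNMD was above the array median only on the beta-TCP array of day 7 (3.47). The defining COL2A1 was below the filter at 0.0554 to 0.661. Osteoblast and bone matrix markers (11 of 11) summed to 2180, 3160 and 3690 against 2580, 3330 and 6230, sums made up mostly of COL1A1, COL1A2, SPP1 and SPARC. By gene, their median difference was 0.18, 1.85 and 0.67 on the 3 days. At least 2-fold higher with beta-TCP were 2, 6 and 4 of the 11, against 4.31%, 3.17% and 3.89% of all probe sets. None was at least 2-fold lower, against 2.96%, 3% and 16.2%. At day 7 these included PTH1R (2.56), ALPL (1.88) and MEPE (3.02). MEPE read 0.0659 in the control and 7.64 with beta-TCP that day, and was above the array median only on the beta-TCP arrays of days 7 and 14. At any size 9 of the 11 were higher at day 7, and COL1A2 (-0.21) and SPP1 (-0.15) were lower. IBSP, bone sialoprotein, read 4.80, 55.3 and 13.1 on the control arrays and 31.9, 251 and 38.7 with beta-TCP.

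Stratified epithelium markers (8 above the filter of 10 measured) summed to 221 on the control array of day 4 and to 16.6 to 67.0 on the other 5 arrays. DLX5, MSX2 and the main ID3 and BMP2 probe sets were lowest on that control array. The remaining member probe sets above the filter, ID1 among them, were lowest on other arrays. Neutrophil markers (5 of 5 measured) summed to 1710, 1440 and 299 on the control arrays and 929, 969 and 104 with beta-TCP. Macrophage markers (6 of 6) summed to 248, 468 and 170 against 187, 234 and 258. The higher sum at day 14 came with CD68 (70.5 in the control, 214 with beta-TCP), while 4 of the 6 were lower and the median was -0.52. The part of these cell types in the members' differences was not tested. Common reference genes had a median difference of 0.03 at day 4, -0.09 at day 7 and -0.68 at day 14, with HPRT1 at 29.5 (control) and 6.27 (beta-TCP) on the day 14 arrays.

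Across the 6 arrays, the members' main probe sets followed each other unevenly. Pearson correlations of their log2 levels, over 6 arrays that share days and treatments, were highest for DLX5 and ID3 (0.93), MSX2 and SMAD6 (0.83) and ID3 with BMP2 (0.79). They were lowest for BMP2 and SMAD6 (-0.40) and MSX2 and ID1 (-0.26). ID1 and ID3 correlated at 0.58. Among 6673 genes with a range of at least 1 log2 unit, each member had a gene that correlated with it at 0.975 or above. The nearest to ID1 was SEMA6D (0.995), followed by ACBD5 (0.976) and CYYR1 (0.955). DLX5 was nearest to SNX9 (0.994), WWP1 and EBF1 (both 0.993), and MSX2 to PLPPR3 (0.997), HES6 (0.991) and PSIP1 (0.989). The nearest to ID3 were COL4A4 (0.994), CADM1 and EPDR1 (both 0.992). BMP2 was nearest to ATP6V0D2 (0.996) and ACP5 (0.990), then FILIP1L (0.987), and BMP4 to COL24A1 (0.975), ABI3BP (0.957) and SCUBE2 (0.953). RUNX2 and SMAD6, with narrow ranges of their own, were nearest to REV3L (0.979), MXI1 (0.975) and DCLRE1A (0.974), and to CRABP2 (0.982), HAPLN1 (0.974) and TBC1D32 (0.972). With 6 arrays and this many genes, such values are a description only.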

How the data were processed

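Labelled RNA from 100 ng of total RNA was hybridised to Affymetrix canine arrays, per the labels' protocols. The values the authors deposited for days 4 and 7 are a signal divided by the array median. For day 14 the authors deposited an undivided intensity. Both units were inferred from how the numbers are distributed. The software and scaling were not stated there. The number of arrays, 1 per group, limits the precision.

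Each array was divided by its median and log2(value + 1) taken. Probe sets were named by a platform annotation table (1 gene for 29254, several for 439, none for 13167). Left out were 90 pairs sharing a name stem and ending in _a_at and _at, which hold no member. Kept were 25608 probe sets with a mean at or above the 40th percentile. The additive fit used limma 3.58.1 in R 4.3.3 (2 residual degrees of freedom) and was tested on simulated data. Its residual mixes specimens, arrays and effects that vary by day.

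The named genes are all members. Of each pathway list they are the 4 highest and 4 lowest averages, with any gene at least 2-fold apart one way on all 3 days, and per member the 3 most correlated genes (unnamed loci passed over). Receptors, SMADs, markers and other list genes were chosen after their values were seen. Members and lists were chosen with earlier results of these data known. Alternatives were the pseudocount, scaling, filter, choice of probe sets and leaving out a day. No sequence of the members was used here.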

Additional observations from a re-analysis of the deposited data

Results flagged for a closer look

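With 1 array per group, differences of opposite sign on different days were listed where they lay at least 2 log2 units apart. None of these differences between days was tested. MSX2 differed by 0.73 at day 4 and 0.64 at day 7, and by -1.51 at day 14. The second ID3 probe set differed by 0.66 and 0.34 on the early days and by -1.67 at day 14. BMP4 differed by 1.70 at day 7 and -0.55 at day 14. All 3 involve the day 14 arrays, which were deposited on another scale, and the beta-TCP array that stood apart from the others.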

How the results depend on the processing

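With a pseudocount of 16, 0 member probe sets were at least 2-fold apart on each of the 3 days. With Cfa probe sets alone, of which 4 are members above the filter, the counts were 1, 0 and 1 on days 4, 7 and 14, and with scaling to the 90th percentile the count at day 4 was 1. The other settings kept the counts of 3, 2 and 4 within 1.5 times. For the average effect, 0 members passed under every alternative, although 108 of all probe sets passed without the day 14 pair, each such fit having 1 residual degree of freedom. For day 14 minus day 4, 1 member (DLX5) passed with quantile normalization and 0 under the other alternatives. Calls for this difference over all probe sets ranged from 0 with a pseudocount of 16 or no filter to 1839 with scaling to the 90th percentile, against 837. Of 80 recomputed averages of single members, 7 changed sign, all with limma adjusted p of 0.46 or more: MSX2 with quantile normalization (0.05), scaling to the 90th percentile (0.04) and without the day 14 pair (0.69), BMP4 (-0.23) and SMAD6 (-0.03) without the day 7 pair, and RUNX2 (0.04) and BMP2 (-0.18) without the day 14 pair. The cause was not tested. The day term of the fit already pairs both treatments within a day. No paired analysis was possible by replicate number because each group holds 1 array. Values near the array background limit RUNX2, SMAD7 and the probe sets below the filter. Low values also enter the early differences of BMP4 and DLX5. BMP4 was at 0.973 to 1.24 on both arrays of day 4 and the control array of day 7. DLX5 was at 0.995 on the control array of day 4.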
